A study of Homo sapiens with 14 samples.

Results

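The KLF4 binding peaks of arsenic-treated Nrf2 KO cells were compared with those of arsenic-treated WT cells. BEAS-2B is an established, virus-immortalised line of human bronchial epithelial cells. Both groups received 1 µM trivalent arsenic (As3+) for 6 h and were then fixed for ChIP-seq with an antibody against KLF4. WT cells keep the gene of Nrf2 (NFE2L2), and Nrf2 KO cells had it disrupted by CRISPR-Cas9. KO cells were taken as colonies without Nrf2 protein and WT cells as colonies that still made it, and which colony went into each library is not given in the sources used here. Untreated Nrf2 KO and WT cells (control) gave a further KLF4 list each, which are used below only for reference. There is 1 library per condition, so differences could not be checked against replicates and no p-value was computed. The intervals printed beside shares and ratios are of the exact type at 95% and cover counting error only. They treat sites as independent, though some lie close together, and those of ratios take both backgrounds as fixed. Peak lists hold no transcript levels, so neither the cell line nor the loss of Nrf2 can be checked in them.

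Members were all intervals of the Nrf2 KO As3+ list on chromosomes 1 to 22 and X, set against all intervals of the WT As3+ list. An interval was shared if it had at least 1 bp in common with an interval of the other list. The Nrf2 KO As3+ list held 130 such intervals of the 107268 in the 4 KLF4 lists. The WT As3+ list held 29866, which is 230 times as many. Of the 130, 78 were shared and 52 were found in Nrf2 KO As3+ but not in WT As3+ (KO-only). The smallest overlap among the shared intervals was 49 bp, at GATM, and the smallest gap among the KO-only intervals was 89 bp, at MIR378B.

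KLF4 is a zinc finger transcription factor that binds GC-rich DNA with a CACCC core at promoters and enhancers, and it takes part in epithelial differentiation and in the maintenance of stem cell states. Nrf2 is a basic leucine zipper factor that Keap1 marks for degradation in unstressed cells. As3+ modifies cysteines of Keap1, Nrf2 then accumulates, pairs with a small Maf protein and binds antioxidant response elements (ARE) of genes for glutathione synthesis, NADPH supply and detoxification. The comparison asks which KLF4 sites were listed under As3+ when Nrf2 was absent.

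The DNA under the summits is shown first, since the sites are compared below by the words they hold. For each class, examples are printed that held a KLF word (CCACACCC or CCACGCCC) or an AP-1 word (TGACTCA or TGAGTCA), on either strand, in the 100 bp around the summit and that touched no annotated exon. The words are in capitals, the sequence is the plus strand of GRCh38, and a word marks letters and not a proven site. The first 4 are shared intervals:
KCNK15-AS1 (chr20:44693144-44693243): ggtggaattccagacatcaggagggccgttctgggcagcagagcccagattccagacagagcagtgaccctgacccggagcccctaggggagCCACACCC
ENSG00000270558 (chr5:37272749-37272848): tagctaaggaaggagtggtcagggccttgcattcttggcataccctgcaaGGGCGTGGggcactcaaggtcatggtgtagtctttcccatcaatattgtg
CEP126 (chr11:102011273-102011372): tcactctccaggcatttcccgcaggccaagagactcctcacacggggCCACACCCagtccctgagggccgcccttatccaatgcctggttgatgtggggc
KRT8 (chr12:52927341-52927440): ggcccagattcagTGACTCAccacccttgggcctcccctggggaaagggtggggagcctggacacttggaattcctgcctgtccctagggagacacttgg

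The next is a KO-only interval, at rank 89.5 of the list and so not one of the strongest:
ENSG00000270001 (chr20:23622890-23622989): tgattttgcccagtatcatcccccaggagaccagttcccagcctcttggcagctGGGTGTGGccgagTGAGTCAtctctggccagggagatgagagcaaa

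The last 2 are WT As3+ intervals with no counterpart in Nrf2 KO As3+ (WT-only):
AXL (chr19:41226120-41226219): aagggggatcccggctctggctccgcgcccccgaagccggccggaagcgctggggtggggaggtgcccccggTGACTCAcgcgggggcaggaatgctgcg
TAGLN2 (chr1:159924556-159924655): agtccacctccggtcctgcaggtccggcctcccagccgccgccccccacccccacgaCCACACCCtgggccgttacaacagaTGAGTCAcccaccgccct

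The Nrf2 KO As3+ list covered 0.0376 Mb and the WT As3+ list 11.2 Mb. The shared intervals made up 60% of the Nrf2 KO As3+ list (interval 51.0 to 68.5) but touched only 74 WT As3+ intervals, 0.248% of that list (0.195 to 0.311). Of these WT intervals, 3 each held more than 1 KO interval and together took 8 of them. Where at least 50% of both intervals had to overlap, 21.5% of the KO list was shared, and against only the 130 strongest WT As3+ intervals 22.3%. Without arsenic the order was the reverse, with 76521 intervals in Nrf2 KO control cells and 751 in WT control cells, so the Nrf2 KO As3+ list was the smallest of the 4. The number of fragments over a summit and the background expected there follow from the fold enrichment and −log10 p that the lists give. A listed summit held a median of 19 fragments in Nrf2 KO As3+ and 10 in WT As3+, and the lowest background was 1.64 and 0.757 fragments. At the shared intervals the background in Nrf2 KO As3+ was a median 2.16 times that in WT As3+, the same as the ratio of the lowest backgrounds. Levels in KO and WT were therefore compared as fragments divided by background, and −log10 p was used to rank intervals within a list.

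The shared sites were mostly among the strongest of both lists by −log10 p. All 10 of the strongest Nrf2 KO As3+ intervals by −log10 p were shared, as were 24 of the strongest 25 and 46 of the strongest 50. In the upper 65 intervals 51 were shared, against 27 in the lower 65. The median rank in the Nrf2 KO As3+ list was 41.5 for shared and 91.75 for KO-only intervals. By fold enrichment the order turned, with medians of 73.5 and 62. Seen from WT As3+, 6 of the 10 strongest intervals were also listed in Nrf2 KO As3+, 22 of the strongest 100 and 47 of the strongest 1000. Below rank 10000 only 5 of 19866 WT As3+ intervals were shared. The 74 shared WT intervals had a median rank of 353 and spanned ranks 1 to 26865.5, where ties were averaged.

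**Figure D1:**
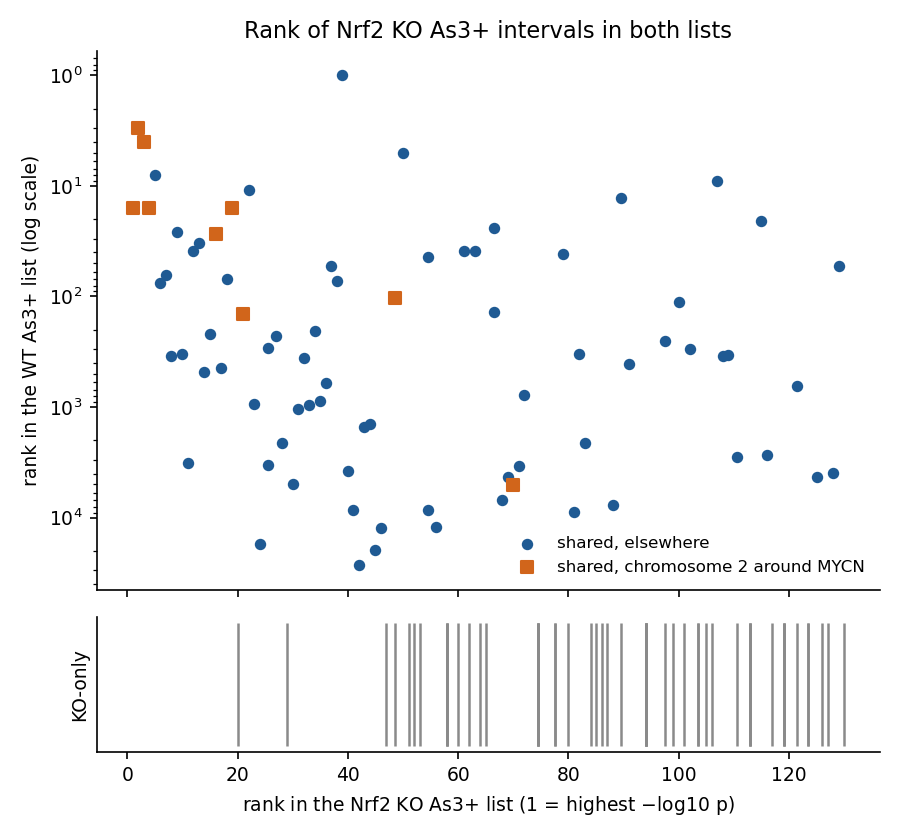
Rank of each Nrf2 KO As3+ interval in its own list (x axis, 1 is the highest −log10 p) against the rank of the overlapping WT As3+ interval (y axis, log scale, strongest at the top), with squares for the 9 intervals on chromosome 2 around MYCN and, in the lower panel, a line for each of the 52 KO-only intervals. The strongest KO intervals sit at the upper left, and the first KO-only interval comes at rank 20.

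The order of strength within the shared sites differed between the lists. Spearman's rho of −log10 p between the lists was 0.29 over the 78 intervals and 0.30 over 73 pairs with 1 KO interval per WT interval. These values are a description, since neighbouring intervals and 1 library each stand behind them. The strongest WT As3+ interval of all, in an intron of TRIOBP, an organiser of actin bundles, was at rank 39 in Nrf2 KO As3+. It held 116 fragments over a background of 2.50 in WT and 30 fragments over 6.24 in KO, a ratio of enrichments (KO to WT) of 0.104 (0.0670 to 0.156). TUBB2A, a beta-tubulin gene, ranked 9 in WT and 107 in KO, with 91 fragments over 2.89 against 20 over 4.99, a ratio of 0.127 (0.0742 to 0.208). An interval between genes nearest to LINC00592 ranked 5 in WT and 50 in KO, with 90 fragments over 2.12 against 23 over 4.24, a ratio of 0.128 (0.0770 to 0.204). Ranks are given as positions in lists of very different length, so a difference in rank is not a change in level.

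Enrichment was lower in Nrf2 KO As3+ than in WT As3+ at nearly every shared site. Fragments over background had a median of 14.3 in WT As3+ and 5.44 in Nrf2 KO As3+, and the KO to WT ratio had a median of 0.458, with a range of 0.104 to 1.26. The ratio was under 1 at 74 of 78 shared intervals, and its interval lay wholly under 1 at 58 and wholly above 1 at 0. A ratio compares the highest summit of each interval, and both summits need not be at the same base. The 8 KO intervals within 3 WT intervals were each set against the highest WT summit there and are not separate comparisons. With 1 background ratio for all sites in place of the backgrounds at each summit, the median was 0.449 and 76 ratios were under 1. The 4 sites with a ratio above 1 lay near GATM (1.26, interval 0.467 to 3.92), HGH1 (1.10), CCDC174 (1.05) and DUSP1 (1.04). GATM makes the creatine precursor guanidinoacetate and DUSP1 is a phosphatase that inactivates stress-activated MAP kinases. All 4 held fewer fragments in WT As3+, with 6, 21, 15 and 17, than the median of 32 at shared sites. Each ratio had an interval that included 1. With 1 background ratio for all sites, HGH1 (0.595) and DUSP1 (0.681) fell under 1.

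**Figure D2:**
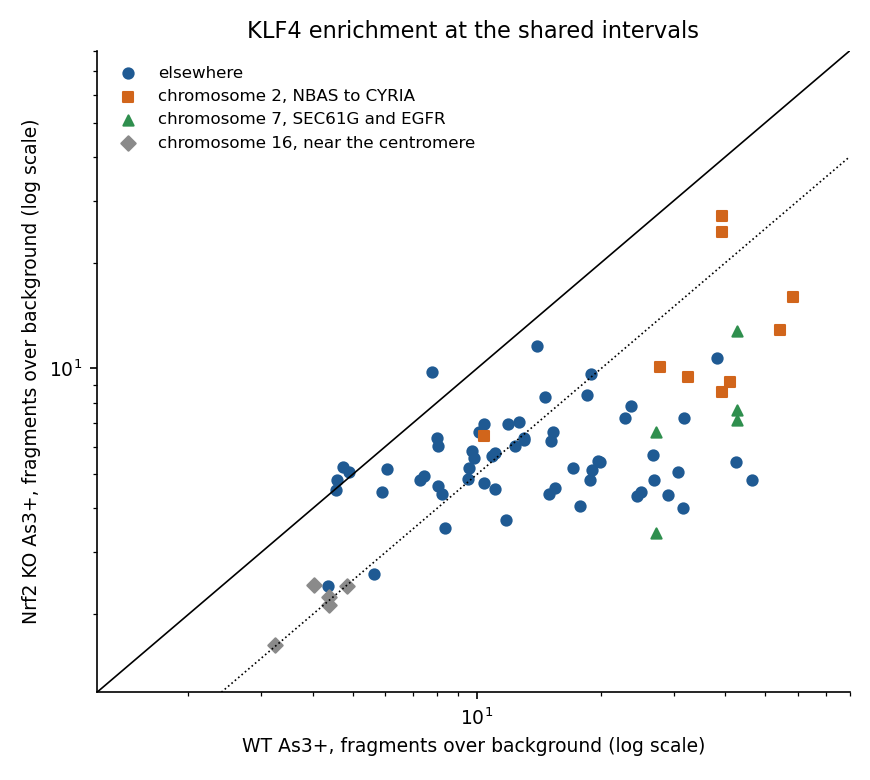
Fragments over background at the 78 shared intervals in WT As3+ (x axis, log scale) and Nrf2 KO As3+ (y axis, log scale), with symbols for intervals that lie together on chromosomes 2, 7 and 16, a solid line at equal values and a dotted line at 0.5 of the WT value. All but 4 points lie under the solid line, and the highest KO values are at chromosome 2 points.

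Several of the strongest Nrf2 KO As3+ sites lay close together on chromosome 2. Of the 130 intervals, 9, all of them shared, fell between 15560312 and 16665650 (GRCh38) at NBAS, DDX1, MYCN and CYRIA. NBAS is a vesicle tethering factor, DDX1 an RNA helicase, MYCN a transcription factor of the MYC family, and CYRIA a regulator of RAC1 signalling. MYCN had 4 of these intervals, 2 of them at ranks 1 and 4. The interval at chr2:15940476-15941492, in intron 1 of MYCN, held 45 fragments over a background of 1.66 in Nrf2 KO As3+ and 53 over 1.35 in WT As3+, with a ratio of 0.688 (0.452 to 1.04). The interval at chr2:15941818-15942474, in coding exon 2, held 40 fragments over 1.64. NBAS held 53 fragments over 3.33 in KO and 90 over 1.54 in WT, a ratio of 0.273 (0.190 to 0.387), 376 bp downstream of a transcription start site (TSS). DDX1 held 71 fragments over 7.49 in KO and 106 over 3.27 in WT, a ratio of 0.293 (0.214 to 0.399), 211 bp downstream of its TSS. The higher ratio at MYCN came with summits at different bases and a background that differed by only 1.23 times between the libraries. With 1 background ratio for all sites it was 0.393, against 0.273 for NBAS and 0.310 for DDX1. The 9 intervals were in ranks 1 to 70 of the KO list.

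Chromosome 7 held a second such stretch, with 5 shared intervals between 54758685 and 55020284 at SEC61G, a subunit of the protein channel of the endoplasmic reticulum, and EGFR, the receptor of epidermal growth factor. The main EGFR interval at chr7:55019547-55020284, in intron 1, held 25 fragments over 1.95 in Nrf2 KO As3+ and 41 over 0.963 in WT As3+, a ratio of 0.300 (0.175 to 0.506). A pair of weaker KO intervals, with 16 and 15 fragments, lay within the same WT interval around the EGFR TSS. SEC61G held 23 fragments over 3.49 in KO and 44 over 1.62 in WT, with a ratio of 0.242 (0.139 to 0.410). The 5 ratios ran from 0.125 to 0.300, but KO intervals within the same WT interval were each divided by its highest summit. This lowers the ratios of the weaker EGFR and SEC61G intervals, and those of the main ones were 0.300 and 0.242. The 9 ratios of the chromosome 2 stretch, where MYCN intervals likewise shared a WT interval, ran from 0.218 to 0.688, with a median of 0.293. The 59 shared intervals outside the 3 stretches had a median of 0.482, which is not a like comparison for such split intervals.

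Another stretch, of 5 shared intervals on chromosome 16 between 46386304 and 46391049, stood apart from both. Its backgrounds were 29.5 to 83.2 fragments in Nrf2 KO As3+, against a median of 4.57 at all shared sites. The strongest of the 5 held 188 fragments but only 2.42 times the background, against 4.02 times in WT As3+. The 5 ratios ran from 0.485 to 0.602, with a median of 0.504. The site lies between genes near the centromere. Its high rank came with many fragments and a low enrichment.

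Away from these stretches, the strongest shared intervals were spread over many chromosomes. S100A14, a calcium-binding protein of epithelia, had an interval 782 bp upstream of its TSS with 49 fragments over 4.57 in KO and 88 over 2.31 in WT, a ratio of 0.281 (0.194 to 0.403). An interval at the neighbouring S100A2 held 22 fragments over 4.57 in KO and 57 over 2.12 in WT, a ratio of 0.179. LEMD2, a protein of the inner nuclear membrane, held 39 fragments in KO and 59 in WT, with a ratio of 0.332 (0.215 to 0.505). KCNK15-AS1 held 52 and 56 fragments, a ratio of 0.430 (0.289 to 0.639), and its printed window ends with a KLF word. FBLN2, an extracellular matrix protein, was the nearest gene of an interval 11136 bp upstream with 41 and 34 fragments, a ratio of 0.558. An interval 14179 bp from ENSG00000270558 held 38 and 31 fragments, a ratio of 0.567. CEP126, a centrosomal protein, was the nearest gene of an interval 32920 bp away with 28 fragments over 2.41 in KO and 14 in WT, a ratio of 0.830 (0.423 to 1.71), and its printed window holds a KLF word close to the summit.

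Several other shared intervals, picked out after their values were seen, lay at related genes. EHD1 (30 fragments, ratio 0.316) and EHD4 (28 fragments, ratio 0.456) encode paralogous ATPases of endocytic recycling. MAP1LC3C (26 fragments, ratio 0.669) and MAP1LC3B2 (25 fragments, ratio 0.482) encode proteins of the autophagosome membrane, and another interval with 12 fragments lay 34 bp from a TSS of FBXO31, within the annotated MAP1LC3B, with a ratio of 0.228. CALCOCO1, a receptor of selective autophagy, ranked 11 in WT and 22 in KO, with 77 and 33 fragments and a ratio of 0.213 (0.137 to 0.324). No test of whether such genes were over-represented was made.

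The 52 KO-only intervals held fewer fragments than the shared ones and lay elsewhere. They held a median of 13 fragments, against 26 at shared intervals, while the median fold enrichment in the list was 4.86 against 4.53. Of the KO-only intervals, 26 lay within 5% of the lowest background of the library, against 6 shared. Only 4 KO-only intervals had a −log10 q of at least 5, against 46 shared. The median distance to the nearest WT As3+ interval was 72200 bp, 42 of 52 were more than 10000 bp away and 3 were within 1000 bp. The strongest, at rank 20, lay 348 bp upstream of WBP1L, a membrane adaptor protein, with 29 fragments over a background of 4.41, and the nearest WT As3+ interval was 267 bp away. The next, at rank 29, lay in a region of chromosome 21 near the centromere with 54 fragments over a background of 15.8, and its nearest TSS was that of the pseudogene EIF3FP1.

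The other strong KO-only intervals were mostly far from promoters. One lay in an intron of PRKG1, a cGMP-dependent protein kinase, nearest to RSU1P3 with 17 fragments over 2.16. GALNT17, a glycosyltransferase, had an interval in intron 1 with 15 fragments over 1.64. ENSG00000235021 was the nearest gene of an interval with 19 fragments, and RB1CC1, a subunit of the kinase complex that starts autophagy, of one with 17 fragments that lay 51275 bp upstream. CLIP2, a microtubule-binding protein, held 15 fragments over 1.82. LINC02930, ENSG00000285834 and ENSG00000254255 tied at rank 58 with 14 fragments each. Among weaker intervals, which were named after their values were seen, CTH, the enzyme that makes cysteine from cystathionine, held 19 fragments over 3.24 in intron 1, and CDC20B, the host gene of the MIR449 cluster, held 18 fragments over 3.58. With 1 KO library, whether these intervals recur was not tested.

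By position, shared sites were close to the WT-only intervals as a whole, and KO-only sites lay farther from TSS. The summit lay within 2 kb of an annotated TSS in 50 of 78 shared intervals (64.1%, 52.4 to 74.7) and in 18625 of 29792 WT-only intervals (62.5%, 62.0 to 63.1). Among KO-only intervals it was 10 of 52 (19.2%, 9.63 to 32.5). The median distance to the nearest TSS was 383.5 bp for shared, 669 bp for WT-only and 14703.5 bp for KO-only intervals. For the 130 strongest WT-only intervals the share near a TSS was 53.1% (44.1 to 61.9) and the median distance 1333 bp. The gap between classes depended on the definition. With 50% of both intervals in common the TSS shares were 53.6% for shared and 44.1% for KO-only, and with a −log10 q of at least 5 in every list they were 59.5% and 62.5% (5 of 8). By the canonical transcript, 34 shared summits lay in introns, 26 between genes, 3 in coding exons and 4 in untranslated regions, and the other 11 lay in other exons or outside the canonical transcript of the gene. KO-only summits lay between genes in 26 cases and in introns in 18. No Nrf2 KO As3+ interval lay on chromosome X, which held only 478 of the 29866 WT As3+ intervals.

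Words were searched in the 200 bp around the summits. A KLF word was present in 16 of 78 shared windows (20.5%, 12.2 to 31.2), 3 of 52 KO-only windows (5.77%, 1.21 to 15.9) and 3061 of 29792 WT-only windows (10.3%, 9.93 to 10.6). Windows at 19895 protein-coding TSS held it in 6.00% of cases. Among the 130 strongest WT-only windows it was 22.3%, close to the share of shared windows. With 50% of both intervals in common the shares were 14.3% for shared and 14.7% for KO-only windows, so the order of both classes was not kept. An AP-1 word was present in 14.1% of shared (7.26 to 23.8), 7.69% of KO-only (2.14 to 18.5), 4.30% of WT-only and 2.12% of TSS windows, and in 20.8% of the 130 strongest WT-only windows (14.2 to 28.8). The ARE core TGACNNNGC, which Nrf2 with small Maf binds, was in 8 of 78 shared windows (10.3%, 4.53 to 19.2), 9.33% of WT-only and 9.96% of TSS windows. In the 130 strongest WT-only windows it was 17.7% (11.6 to 25.4). It was in 1 of 52 KO-only windows. A GC box (CCCCGCCCC) was in 2.56% of shared, 1.92% of KO-only, 7.81% of WT-only and 18.0% of TSS windows. The median GC content of the windows was 57.75% for shared, 41.5% for KO-only and 64.5% for WT-only, and its part in these shares was not tested.

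**Figure D3:**
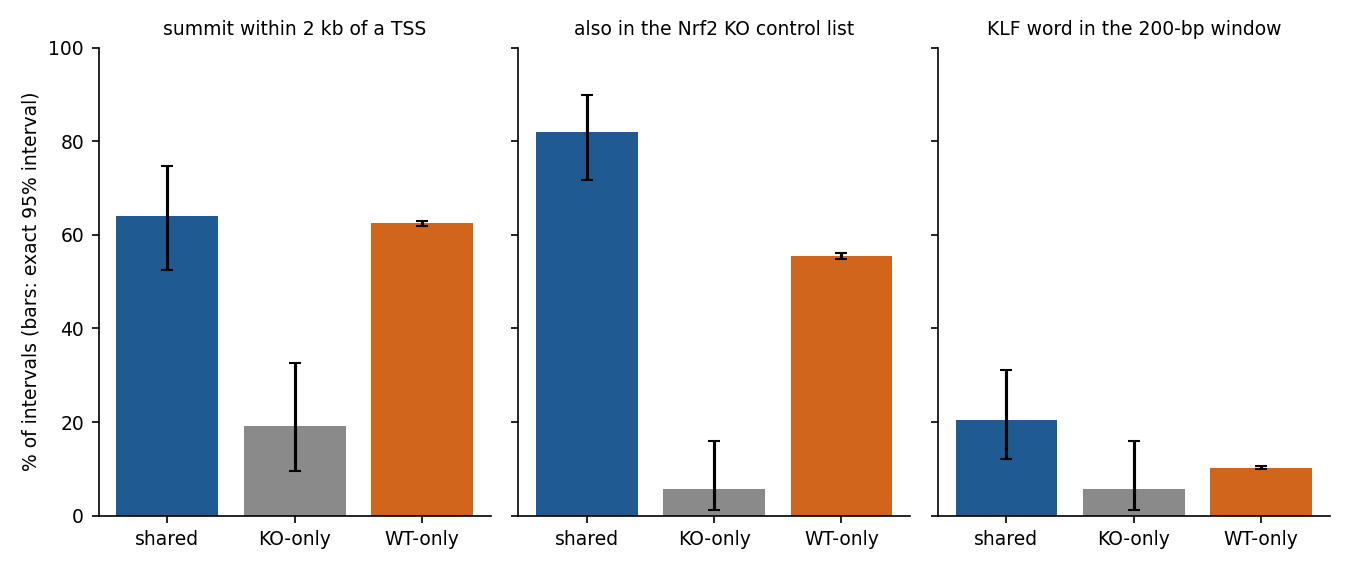
Share of shared, KO-only and WT-only intervals (y axis, %) with the summit within 2 kb of a TSS, with an overlap in the Nrf2 KO control list, and with a KLF word in the 200-bp window, with exact 95% intervals as error bars. The KO-only bars, at 19.2%, 5.77% and 5.77%, are the lowest in each panel.

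Most shared sites were also bound in untreated cells. Of the 78, 64 overlapped an interval of the Nrf2 KO control list (82.1%, 71.7 to 89.8), 56 one of the WT control list, and 74 at least 1 of both. Only 4 of the 52 KO-only intervals overlapped either list, and 48 were in no other list. Of the WT-only intervals, 16536 of 29792 (55.5%) overlapped the Nrf2 KO control list and 586 (1.97%) the WT control list. Most of these were weaker in WT As3+ than the shared sites. The 10 strongest WT-only intervals all overlapped both control lists, so presence there was not particular to shared sites. The Nrf2 KO As3+ and WT control lists were the 2 short ones, and 22 of the 50 strongest and 57 of all 751 WT control intervals (7.59%) were in Nrf2 KO As3+. At the 56 shared intervals that WT control also held, the ratio of enrichment in Nrf2 KO As3+ to WT control had a median of 0.891 (range 0.393 to 2.41) and was under 1 at 36, whereas the ratio to WT As3+ at the same intervals had a median of 0.443. At the 64 shared intervals that Nrf2 KO control held, the ratio of enrichment in Nrf2 KO As3+ to Nrf2 KO control had a median of 0.299 (range 0.0603 to 0.938) and was under 1 at all 64. The ratio of Nrf2 KO control to WT As3+ at these intervals had a median of 1.29 (range 0.372 to 4.08) and was above 1 at 38. Fragments divided by background were 142.5 at the strongest MYCN interval and 82.8 at NBAS in Nrf2 KO control, against 27.1 and 15.9 in Nrf2 KO As3+. The MYCN value came from 70 fragments over 0.491, the lowest background of the Nrf2 KO control library. Differences in the success of the immunoprecipitation between single libraries cannot be told apart from an effect of genotype or arsenic.

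What the lowest −log10 p of the Nrf2 KO As3+ list implies was worked out for the 29792 WT-only intervals. With the WT background scaled to the KO library and the same enrichment as in WT As3+, 29719 of them (99.8%) would have reached the lowest −log10 p of the KO list (5.03), if the listing depended on that value alone. That count was nearly fixed by the scaling, which raised fragments and background together, so it does not show whether depth limited the list. At 0.458 of the WT enrichment, the median of the shared sites, 5807 would have reached the same −log10 p. That ratio comes only from sites that reached the KO list. The 5807 therefore does not show how many WT-only intervals should have been listed. For each site the largest count that stays below the lowest −log10 p of the KO list gives an upper bound on the KO to WT ratio. The bound takes the KO background as 2.16 times the WT one at every site, and it carries no counting interval. At the shared intervals that background ratio had quartiles of 1.98 and 2.20. The bound had a median of 0.521 and was under 0.5 at 11878 WT-only intervals, and it was at most 0.204 at the 100 strongest.

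The strongest WT-only interval lay 85 bp upstream of a TSS of SEMA3B, a secreted semaphorin, and ranked 2 in WT As3+ with 108 fragments over a background of 2.89. With the scaled background, at most 18 fragments could have gone unlisted in Nrf2 KO As3+, which gives a bound of 0.0772 on the ratio. HM13, the signal peptide peptidase, held 100 fragments, with a bound of 0.0926. LAMA5, a laminin chain of basement membranes, held 87 fragments in intron 2 near LAMA5-AS1, with a bound of 0.0798. AXL, a receptor tyrosine kinase, held 66 fragments in intron 4, with a bound of 0.0982 and an AP-1 word in its printed window. DYNC2I2, a dynein subunit of cilia, held 59 fragments with a bound of 0.118. The remaining 5 of the strongest 10 lay near ENSG00000232155, LINC02298, ENSG00000273069, ENSG00000256955 and ENSG00000287356, with 52 to 81 fragments. All 10 overlapped an interval in both control lists.

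At the level of genes, an interval counted if its summit lay from 2000 bp upstream to 2000 bp downstream of the gene. In WT As3+, 12794 of 19970 protein-coding genes had an interval (64.1%), and in Nrf2 KO As3+ 83 had one (0.416%). Of the 12794, 73 kept an interval in Nrf2 KO As3+ (0.571%, 0.448 to 0.717) and 12721 did not, which is 63.7% of all protein-coding genes. Another 10 genes had one in Nrf2 KO As3+ and not in WT As3+. Of the 12721, 12193 had an interval in Nrf2 KO control cells, where 15749 of all 19970 protein-coding genes had one. KLF4 itself had 2 intervals in WT As3+ and 4 in Nrf2 KO control, and NFE2L2 had 3 and 5, while both had 0 in Nrf2 KO As3+ and 0 in WT control.

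Each of the gene lists examined was empty or nearly empty in Nrf2 KO As3+. In 24 gene lists with 470 distinct genes, 374 had an interval in WT As3+ (79.6%) and 4 in Nrf2 KO As3+ (0.851%), and 370 were missing from Nrf2 KO As3+ (78.7%). In 21 of 24 lists no member had an interval in Nrf2 KO As3+. These shares stand beside 64.1%, 0.416% and 63.7% of all protein-coding genes, so missing intervals were not particular to the lists. The lists differed in WT As3+, from 13 of 27 proteasome subunits (48.1%) to all 17 genes of epithelial to mesenchymal transition and all 25 chromatin enzymes. Of the 370 missing genes, 357 had an interval in Nrf2 KO control cells, as had 422 of all 470 listed genes. Among all protein-coding genes it was 12193 of the 12721 missing ones, so this too was not particular to the lists. In WT control, the other short list, 24 of the 470 listed genes and 456 of all 19970 protein-coding genes had an interval. Few listed genes with an interval were therefore not particular to Nrf2 KO As3+.

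**Figure D4:**
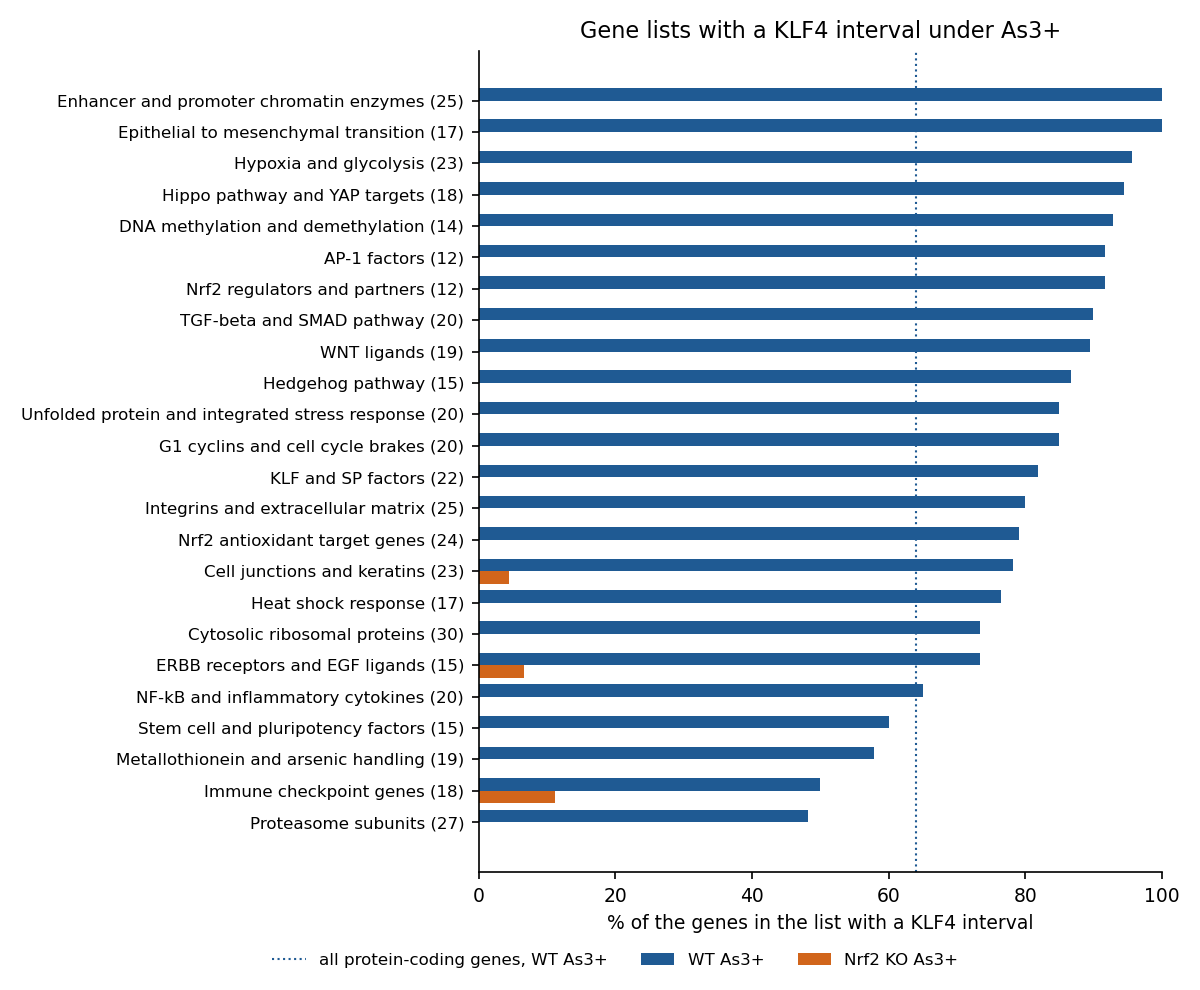
Percentage of each gene list (y axis, number of genes in parentheses) with a KLF4 interval in WT As3+ and Nrf2 KO As3+ (x axis, %), with a dotted line for all protein-coding genes in WT As3+ (64.1%). Bars for Nrf2 KO As3+ are seen in 3 lists only.

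Of the antioxidant target genes of Nrf2, 19 of 24 had an interval in WT As3+ and 0 in Nrf2 KO As3+. PRDX1, a peroxiredoxin, had 37 fragments at rank 214.5, NQO1 had 17 and HMOX1, which degrades heme, had 17. Of the regulators and partners of Nrf2, 11 of 12 had an interval in WT As3+ and MAFG, a small Maf protein, was strongest with 30 fragments. The KLF and SP factors had 18 of 22, led by KLF10 with 33 fragments, and the AP-1 factors 11 of 12, led by JUNB with 31. None of these 4 lists had a member in Nrf2 KO As3+, where 0.416% of all protein-coding genes had an interval. At that share, lists of this length would mostly have none.

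The listed genes of stem cell states, cell shape and signalling likewise had no interval in Nrf2 KO As3+. Stem cell and pluripotency factors had 9 of 15 in WT As3+, with MYC strongest at 19 fragments. MYCN, which had 4 intervals in Nrf2 KO As3+, was not among the genes of this list. In the list of epithelial to mesenchymal transition TWIST2, a repressor of epithelial genes, held 53 fragments and VIM, the intermediate filament of mesenchymal cells, 47. The Hedgehog pathway had 13 of 15, WNT ligands 17 of 19, with WNT10A at 30, and the TGF-beta pathway 18 of 20, with the ligand TGFB1 at 32. Cell cycle regulators had 17 of 20, with the inhibitor CDKN1A at 30 fragments, and YAP targets and Hippo pathway genes 17 of 18, with AXL at 66. Integrins and matrix genes had 20 of 25, with LAMA5 at 87. All of these lists had 0 members in Nrf2 KO As3+, where 0.416% of all protein-coding genes had an interval.

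Stress, metabolism and housekeeping lists were no exception. The heat shock list had 13 of 17, with the mitochondrial chaperonin HSPD1 at 26 fragments, and the unfolded protein and integrated stress response 17 of 20, with the sensor kinase ERN1 at 19. Metallothioneins and arsenic handling had 11 of 19, with the glucose transporter SLC2A1 at 22, and hypoxia and glycolysis 22 of 23, with pyruvate kinase PKM at 36. The NF-kB and cytokine list had 13 of 20, with IKBKG, the regulatory subunit of the IKK complex, at 31. Chromatin enzymes were led by the histone methyltransferase KMT2A with 36 fragments, and the DNA methylation list (13 of 14) by UHRF1 with 35. Cytosolic ribosomal proteins had 22 of 30, led by RPL10 with 43, and the proteasome list was led by PSMD1 with 17. None of these lists had a member in Nrf2 KO As3+, where 0.416% of all protein-coding genes had an interval.

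The 4 listed genes with an interval in Nrf2 KO As3+ were EGFR, KRT8, VSIR and PVR. EGFR, with 3 intervals at its promoter and in intron 1, was alone in having its strongest interval near the TSS of its canonical transcript, and 10 other ERBB receptor and ligand genes with an interval in WT As3+, HBEGF among them, had none. The KRT8 interval lay 22314 bp upstream of the TSS of the canonical transcript of this keratin, within an extended annotation of the gene, and held 28 fragments in KO and 17 in WT, a ratio of 0.749 (0.396 to 1.46). The other 17 junction and keratin genes with a WT As3+ interval, CTNNB1 among them, had none. VSIR, an inhibitory receptor of T cells, held 31 fragments over 6.40 in KO and 33 over 3.47 in WT, a ratio of 0.508 (0.301 to 0.856), and the site also lies in an intron of CDH23. The PVR interval lay 592 bp downstream of a TSS of the overlapping gene CEACAM19, with 18 fragments in KO and 17 in WT, and a ratio of 0.566 (0.275 to 1.17). The other 7 immune checkpoint genes with an interval in WT As3+, CD47 and CD274 among them, had none in Nrf2 KO As3+.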

How the data were processed

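KLF4 ChIP-seq peak lists of 4 libraries were used, 1 per condition, of the 14 samples of the series. The libraries for histone marks and input were not analysed here. The authors aligned reads with BWA to GRCh38/hg38, and the submitters' processing notes name bcl2fastq 2.17. The peak caller and the input used for each list are not given in the sources used here. The deposited lists give for each interval a fold enrichment (a ratio to local background) at the summit, a −log10 p, a −log10 q and a score, which in the deposited files is the whole part of 10 times the −log10 q. The smallest deposited −log10 q was 1.00 to 1.03, so weaker sites are unlisted. Read totals are not in the lists.

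Intervals on chromosomes 1 to 22 and X were used. Fragments n and background λ were solved from 2 relations, (n + 1)/(λ + 1) for the fold and, for p, the Poisson probability of more than n (misfit in −log10 p at most 0.000405). Ratios of n/λ carry exact conditional intervals with λ fixed, and shares carry Clopper-Pearson intervals. Genes and TSS were from GENCODE 44, with every annotated transcript giving a TSS, and words were searched in GRCh38. An interval was named for the gene with the nearest TSS, a protein-coding one being preferred within 2 kb. Named were the 12 strongest shared, 10 strongest KO-only and 10 strongest WT-only intervals, every listed gene in the Nrf2 KO As3+ list, the strongest WT As3+ member of each list, NFE2L2 and KLF4. Others were named after their values were seen, and some results under this rule are not reported here. Members and gene lists were chosen with earlier results of these data known. The fragment, overlap, TSS, gene and word steps were tested on simulated data. Alternatives were a stricter q, other overlaps, windows and ranks, the 130 strongest WT intervals, and leaving out the stretch of chromosome 2. Python 3.11.15, numpy 2.4.6, scipy 1.17.1, pandas 2.3.3 and matplotlib 3.10.9 were used.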

Additional observations from a re-analysis of the deposited data

Results flagged for a closer look

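Outside the assembled chromosomes, which the comparison did not use, the Nrf2 KO As3+ list held 10 intervals on 4 sequences, above a fixed limit of 3. The other lists held 86 (WT As3+), 223 (Nrf2 KO control) and 9 (WT control) there, so all 4 lists passed this limit. Such intervals made up a larger part of both short lists. The highest −log10 p among the 10 was 49.1, above that of every interval on the assembled chromosomes of that list. With 1 library per condition, samples could not be compared within a group.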

How the results depend on the processing

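In 107 recomputed values under 15 settings, 67 stayed within the interval of the reported value or, for counts, within 1.5 times of it. A −log10 q of at least 5 in every list left 50 intervals in Nrf2 KO As3+, 9521 in WT As3+, 16156 in Nrf2 KO control and 433 in WT control, so the order of the lists was kept. Under it 84.0% of Nrf2 KO As3+ intervals and 0.431% of WT As3+ intervals were shared, the median KO rank of shared intervals was 22.5, and 25.0% of KO-only intervals were in a control list. A TSS lay near 62.5% of KO-only and 77.3% of WT-only intervals. KLF words were in 0% of KO-only and 12.3% of WT-only windows, and AP-1 words in 0% and 5.59%. Only 8 KO-only intervals were left, so the KO-only shares under this setting rest on few sites. The interval of both 0% values was 0 to 36.9. The protein-coding genes numbered 33 in both lists and 7147 in WT As3+ alone, and 247 listed genes had a WT As3+ interval.

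With 50% of both intervals in common, 21.5% of the Nrf2 KO As3+ list and 0.0938% of the WT As3+ list were shared, 44.1% of KO-only intervals lay near a TSS, and 71.4% of shared and 31.4% of KO-only intervals were in a control list. With the 130 strongest WT As3+ intervals, 22.3% of KO and 18.5% of WT intervals were shared, a TSS lay near 38.6% of KO-only and 54.7% of WT-only intervals, and WT-only windows held a KLF word in 21.7% and an AP-1 word in 23.6%. Ranked by fold, the median KO rank of shared intervals was 73.5. A TSS window of 1 kb gave 55.1% for WT-only intervals, and one of 5 kb gave 73.0% for WT-only and 32.7% for KO-only intervals. With only summits within 2 kb of a TSS of the gene, 47 genes were in both lists and 2 listed genes were in Nrf2 KO As3+. In windows of 100 bp KLF words were in 10.3% of shared and 5.67% of WT-only windows and AP-1 words in 6.41% and 1.98%, and in windows of 400 bp WT-only windows held them in 16.9% and 7.75%. Leaving out the stretch of chromosome 2 moved no value beyond these limits. The use of 1 background ratio for all sites was chosen after the data were seen.

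With 1 library per condition, variation between libraries is unknown, and library quality, genotype and treatment cannot be told apart. Unlisted sites below the threshold of a list were not measured. Intervals cover counting error only. No paired analysis was possible because each condition has 1 library and no test was made.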
